A study of Mus musculus with 36 samples.

Results

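Btg2, Ier2, Ier5, Trib1 and Ppp1r15a are genes of the rapid response to stimulation that lie outside the Fos, Jun, Egr and Nr4a families of transcription factors. They were taken as 5 of the 55470 gene rows in each of 36 libraries of ribosome-bound RNA from mouse cortex, by matching the gene identifiers to mouse symbols. The 5 genes were selected on the measured levels across genotype and swim time, in naive mice too, so their genotype differences, swim responses and the differences between those responses are a description. Where a count of these genes past the threshold of the fit over all genes is printed, it stands beside the share of all genes, and nothing is read from it. Of the 5, 4 passed a filter on low counts that left 11341 genes, and Ier2 did not.

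The libraries came from RiboTag mice, in which Cre recombinase puts an HA epitope on the ribosomal protein Rpl22 so that ribosomes and the RNA bound to them can be pulled down with an anti-HA antibody. Every mouse carried HA-Rpl22 and Camk2a-Cre(+/-), which marks forebrain excitatory neurons, on a C57BL6JL background, and the sample labels give the tag as f/+ where the extraction protocol gives f/f. Mice labelled Shank3 were Shank3(deltaC/+), with 1 mutated copy of the gene for a postsynaptic scaffold protein, and mice labelled WT were Shank3(+/+) littermates. Naive mice stayed in the home cage, and the others were taken 1 h or 4 h after they had been made to swim, in water of 25 °C and for a time given as 5 min in the treatment label and 6 min in the protocol. Cohort 1 held 3 WT naive, 3 Shank3 naive, 6 WT 1 h and 5 Shank3 1 h libraries. Cohort 2 held 4 WT naive, 4 Shank3 naive, 5 WT 4 h and 6 Shank3 4 h libraries. Swim groups were compared only with naive libraries of their own cohort, and the 1 h and 4 h times were never in the same cohort. Sex and age are not given in the sources used here, and no label ties a library to an animal, so the spread between libraries may be partly technical.

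Each library held between 0.884 and 3.52 M counts, and the deepest was a WT 4 h library. All 7 pyramidal neuron markers passed the filter, with a summed level of 1353 to 2136 CPM in naive and 1 h libraries and 2203 to 3874 CPM at 4 h (counts scaled to 1 M of the effective library size, which the TMM method sets). None of 6 endothelial and mural markers passed it, and Cldn5 was at 0 counts in the 36 libraries. The summed astrocyte markers, of which 3 of 6 passed, ran from 78.1 to 102.1 CPM at 4 h and from 33.5 to 80.7 CPM in naive libraries of cohort 2. The summed oligodendrocyte markers, of which 4 of 6 passed, ran from 116.2 to 324.9 CPM at 4 h and from 71.6 to 123.3 CPM in the same naive libraries. The summed interneuron markers, of which 3 of 6 passed, had a median of 8.05 CPM in WT naive libraries of cohort 1 and 18.6 CPM in WT libraries at 1 h, within a range of 2.96 to 84.3 CPM over all libraries. Of 6 microglial markers only Csf1r passed, and its exons lie opposite another gene. Counts on the Shank3 gene itself ran from 5.44 to 19.7 CPM in WT libraries and from 7.18 to 34.7 CPM in Shank3 libraries. These counts do not separate the deleted end of the gene, so they do not check the genotype labels.

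A further measure differed between the groups and stands beside the results. Antisense genes and the protein-coding genes they overlap form 1813 pairs, and the pair share is how much of the counts on such pairs fell on the coding rows, in percent. Its mean was 10.8% in WT naive and 11.3% in Shank3 naive libraries of cohort 1, 14.4% and 14.0% at 1 h, 13.2% and 13.1% in naive libraries of cohort 2, and 23.2% and 25.5% at 4 h. Whether the authors' counting used the strand of the reads is not given in the sources used here.

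Rapid early genes are switched on within minutes of synaptic activity or stress from promoters that need no new protein, and many of their products are short-lived. Btg2 is a BTG/Tob protein that draws the CCR4-NOT deadenylase to messages and slows cell division, and it is a target of p53. Ier2 and Ier5 are related nuclear proteins that bind B55 forms of the phosphatase PP2A, and Ier5 activates the heat shock factor HSF1. Trib1 is a Tribbles pseudokinase that brings substrates such as C/EBP proteins to the ubiquitin ligase COP1. Ppp1r15a, also called GADD34, brings protein phosphatase 1 to phosphorylated eIF2alpha and so ends the block on translation in the integrated stress response. The RNA was pulled down with ribosomes of a whole cortex, and each level is relative to the other RNA of its library. A lower level can reflect another mix of cells, less ribosome-bound RNA of the gene per cell or more RNA of other genes. These cannot be told apart.

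The genes lie apart from each other in the mm10 build (GENCODE vM21), and each value below is a count over the exons of the whole gene. Btg2 (ENSMUSG00000020423) lies on the minus strand at chr1:134075170-134079120, and Ier5 (ENSMUSG00000056708) on the same strand of the same chromosome at chr1:155096361-155099636. Ier2 (ENSMUSG00000053560) lies at chr8:84661331-84662852 on the minus strand. Trib1 (ENSMUSG00000032501) lies at chr15:59648350-59657099 on the plus strand. No annotated gene lies opposite these 4 genes. Ppp1r15a (ENSMUSG00000040435) lies on the minus strand at chr7:45522916-45526268, and its last exon overlaps the end of Tulp2 on the other strand over 12 bases, which are 0.4% of its exon bases.

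RefSeq promoters (GRCm38.p6) were matched for 3 of the 5 genes, and these are shown. No promoter was matched for Ier2 or Trib1. Each line gives the 250 bases before the annotated start, on the gene's own strand, at chr1:134079156-134079405 for Btg2, chr1:155099637-155099886 for Ier5 and chr7:45526269-45526518 for Ppp1r15a. Capitals mark the full cAMP response element (CRE), TGACGTCA, and CCAAT boxes, written ATTGG where they lie on the other strand.
Btg2: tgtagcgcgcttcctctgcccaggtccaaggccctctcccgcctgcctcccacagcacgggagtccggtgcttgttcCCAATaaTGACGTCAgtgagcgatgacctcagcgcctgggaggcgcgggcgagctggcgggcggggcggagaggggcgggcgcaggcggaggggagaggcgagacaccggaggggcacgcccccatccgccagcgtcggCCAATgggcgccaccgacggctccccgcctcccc
Ier5: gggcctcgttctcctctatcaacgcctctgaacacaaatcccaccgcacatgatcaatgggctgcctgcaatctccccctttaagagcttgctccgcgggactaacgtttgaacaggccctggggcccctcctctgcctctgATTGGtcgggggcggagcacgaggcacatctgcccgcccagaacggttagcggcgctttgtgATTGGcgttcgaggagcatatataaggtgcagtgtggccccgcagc
Ppp1r15a: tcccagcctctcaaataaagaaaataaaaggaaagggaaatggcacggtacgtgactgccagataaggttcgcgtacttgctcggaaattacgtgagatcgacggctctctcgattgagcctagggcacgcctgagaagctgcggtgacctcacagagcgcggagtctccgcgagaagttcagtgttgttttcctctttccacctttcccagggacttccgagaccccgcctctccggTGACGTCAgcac
The Btg2 window holds a CRE from -166 to -159 and CCAAT boxes that begin at -173 and -34. It also holds a match to the EGR site GCGNGGGCG that begins at -131. The Ppp1r15a window holds a CRE from -12 to -5 and no CCAAT box. The Ier5 window holds CCAAT boxes on the other strand from -108 to -104 and from -46 to -42. Read on both strands of 32851 promoter windows of this length, the CRE was present in 1.55%, the CCAAT box in 33.85% and the EGR site in 4.7%. The CArG box (in 1.47% of windows), the AP-1 site TGANTCA (6.75%), the ETS core CCGGAAG (6.91%), the heat shock element GAANNTTC (6.69%) and the C/EBP-ATF site TGATGNAA (3.45%) had no match in the 3 windows. A match describes letters, and no binding was measured.

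All 5 genes were sparsely counted, and Ier5 was the most abundant. Over the 36 libraries the mean level per kilobase of exon was 9.90 CPM for Ier5, 1.73 CPM for Trib1, 1.59 CPM for Btg2, 1.20 CPM for Ier2 and 0.764 CPM for Ppp1r15a. The median count per library was 40.5 for Ier5, 14.5 for Trib1, 6.5 for Btg2, 3.5 for Ppp1r15a and 2 for Ier2. Ppp1r15a had 0 counts in 7 libraries, Ier2 in 5 and Btg2 in 2. At this depth ratios are also given from counts summed over a group, with an exact 95% binomial interval that covers counting error only and gives deeper libraries more weight.

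**Figure D1:**
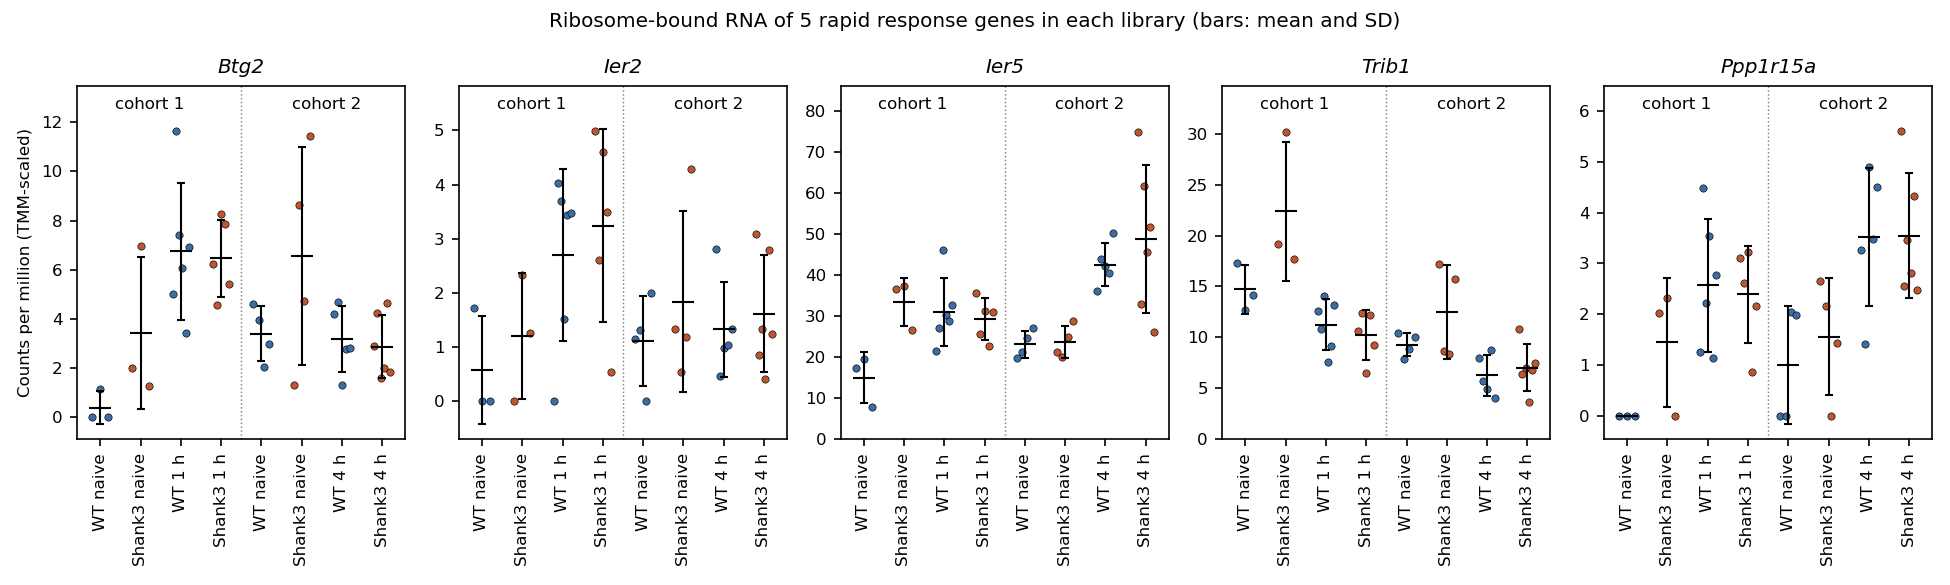
TMM-scaled CPM (vertical axes, linear) of each gene in each of 36 libraries (points, blue WT and orange Shank3), by group, with the mean and SD as bars; the dotted line parts cohort 1 from cohort 2. Ppp1r15a is at 0 in all 3 WT naive libraries of cohort 1, Ier5 is highest at 4 h, and Trib1 is highest in Shank3 naive libraries of cohort 1.

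Btg2, the antiproliferative deadenylation factor, was nearly absent from WT naive libraries of cohort 1 and readily counted 1 h after the swim. The 3 WT naive libraries of cohort 1 held 0, 1 and 0 counts, which is 0.383 ± 0.664 CPM (SD, n = 3). The 6 WT libraries at 1 h ran from 3.44 to 11.7 CPM with a median of 6.50, and the mean was 6.76 ± 2.79 (SD, n = 6). Every WT 1 h library lay above every WT naive library of its cohort. The summed astrocyte markers did so too, at 32.7 to 84.4 CPM against 25.1 to 31.1 CPM, and their part in the result was not tested. The log2 fold change was 3.73 ± 0.92 (SE), and the ratio of the summed counts, 65 against 1, was 15.6 (2.71 to 626.7). The single naive count decided the size of this value, because without WT naive library 2, which held it, the fitted change was 6.73. The change was 2.64 when the naive libraries of both cohorts were joined with an additive cohort term.

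In Shank3 mice Btg2 started higher and the swim groups overlapped the naive ones. The 3 Shank3 naive libraries of cohort 1 held 2.02, 6.97 and 1.26 CPM, and the 5 Shank3 1 h libraries held 6.23, 4.57, 8.27, 7.85 and 5.42 CPM. The 1 h means of the genotypes were 6.47 ± 1.58 (SD, n = 5) in Shank3 and 6.76 in WT, with overlapping libraries. The Shank3 log2 change at 1 h was 0.91 ± 0.56, and it was 1.91 without Shank3 naive library 2. In naive mice the WT libraries of cohort 2 held 4.62, 3.95, 2.04 and 2.99 CPM, and the Shank3 libraries held 1.32, 8.65, 4.75 and 11.5 CPM. The 4 Shank3 libraries of cohort 2 thus lay on both sides of the WT libraries. At 4 h Btg2 stood at 3.17 ± 1.34 CPM (SD, n = 5) in WT and 2.88 ± 1.30 CPM (SD, n = 6) in Shank3, where the log2 changes were -0.08 ± 0.51 and -1.20 ± 0.42. The Shank3 libraries at 4 h, from 1.60 to 4.64 CPM, lay inside the range of their naive libraries. On plain library totals the 4 h changes were 0.67 in WT, the other direction, and -0.22 in Shank3. The Shank3 change at 4 h was -1.34 with the pair share as a covariate, -0.96 without Shank3 naive library 5 and -0.95 without Shank3 naive library 7. In that last library, which held the highest naive levels of Btg2 and Ier2, rRNA rows took 38.6% of the counts and the TMM factor was 0.498, the lowest of the 36. With the rRNA rows left out of the counts the Btg2 change was -1.19.

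Ier2, an immediate early nuclear protein, gave the fewest counts but had its highest group means 1 h after the swim, in cohort 1. WT naive libraries held 1, 0 and 0 counts in cohort 1 and 1, 1, 0 and 2 counts in cohort 2. WT libraries at 1 h held 0, 9, 5, 3, 3 and 5 counts, and Shank3 libraries at 1 h held 8, 4, 10, 4 and 1. All but 1 of the WT 1 h libraries had 3 or more counts, and no naive WT library did, but the libraries differ in depth. On the TMM scale 4 of the 6 WT 1 h libraries lay above all 3 WT naive libraries of cohort 1. The group means at 1 h were 2.69 ± 1.59 CPM (SD, n = 6) in WT and 3.24 ± 1.78 CPM (SD, n = 5) in Shank3. Naive means ran from 0.576 CPM in WT of cohort 1 to 1.84 CPM in Shank3 of cohort 2. The summed counts gave a ratio at 1 h of 6.01 (0.984 to 246.8) in WT and 2.86 (0.880 to 14.7) in Shank3, and both intervals include no change. At 4 h the means were 1.33 CPM in WT and 1.62 CPM in Shank3, and their ratios to naive were 1.33 (0.448 to 5.33) and 1.30 (0.541 to 3.78). On plain totals the intervals of WT at 1 h, 1.53 to 384.6, and of Shank3 at 1 h, 1.23 to 20.7, and 4 h, 1.06 to 7.44, lay above no change. Refitted with no filter on low counts, Ier2 had a log2 change of 2.49 ± 1.16 in WT at 1 h and 1.51 ± 0.87 in Shank3 at 1 h.

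Ier5, the activator of HSF1, had its highest group means at 4 h, a time that only cohort 2 holds. Against naive mice of the same cohort, the WT log2 change was 1.04 ± 0.32 at 1 h and 0.88 ± 0.25 at 4 h. The Shank3 change was -0.19 ± 0.27 at 1 h and 1.08 ± 0.24 at 4 h. In WT the change was thus no larger at 4 h. WT libraries held 36.0, 43.7, 42.0, 40.4 and 50.2 CPM at 4 h, against 19.6, 21.1, 24.5 and 26.9 CPM in WT naive libraries of cohort 2. The groups did not overlap, and the log2 change was 0.88 ± 0.25. Shank3 libraries at 4 h ran from 25.9 to 74.8 CPM with a median of 48.6, against 21.2, 20.0, 24.9 and 28.6 CPM in Shank3 naive libraries of cohort 2. All but 1 of the 6 Shank3 libraries lay above their naive libraries, and the log2 change was 1.08 ± 0.24. The ratios of summed counts were 1.89 (1.52 to 2.36) in WT and 2.41 (1.95 to 3.01) in Shank3. The size of the 4 h change depended on the scaling more than on any 1 library. It was 1.63 in WT and 2.13 in Shank3 on plain library totals, and 0.43 and 0.54 with TMM factors computed over genes that have no opposite-strand neighbour. With the pair share as a covariate it was 0.26 ± 0.25 in WT and 0.36 ± 0.27 in Shank3. That covariate changed the genes at large too, since with it 7.69% of all genes passed the threshold in WT at 4 h and 0.529% in Shank3, against 56.0% and 62.1% without it. The pair share ran from 17.0% to 33.1% at 4 h and from 11.7% to 15.0% in naive libraries of cohort 2, with no overlap, so it cannot be told apart from the 4 h groups.

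The Ier5 libraries of naive mice lay apart by genotype in cohort 1 and overlapped in cohort 2. WT naive libraries of cohort 1 held 17.3, 19.6 and 7.85 CPM, and Shank3 naive libraries held 36.4, 37.2 and 26.6 CPM. The ranges did not overlap in cohort 1, where the log2 difference was 1.14 ± 0.36 and the ratio of summed counts 2.2 (1.45 to 3.40). In cohort 2 the means were 23.0 ± 3.30 CPM in WT and 23.7 ± 3.91 CPM in Shank3 (SD, n = 4 each), with a difference of 0.01 ± 0.29. Whether the difference itself varied between cohorts was not tested. WT libraries at 1 h ran from 21.4 to 45.9 CPM with a median of 29.5, all above WT naive libraries of cohort 1, and the log2 change was 1.04 ± 0.32. It was 0.75 without WT naive library 3, the lowest. Joining the naive libraries of both cohorts gave 0.60, the pair share as a covariate 0.70 and TMM over genes that have no opposite-strand neighbour 0.68. Shank3 libraries at 1 h held 35.5, 25.4, 31.2, 22.7 and 30.9 CPM, overlapping their naive libraries, and the log2 change was -0.19 ± 0.27. On plain totals this last change was 0.29, the other direction.

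Trib1, the pseudokinase adaptor of COP1, had its highest group means in naive mice of cohort 1. On the TMM scale no swim group had a mean above that of naive mice of its own genotype and cohort. WT naive libraries of cohort 1 held 17.3, 12.7 and 14.1 CPM, and Shank3 naive libraries held 19.2, 30.2 and 17.7 CPM. The WT 1 h libraries ran from 7.57 to 14.1 CPM with a median of 11.7, and the Shank3 1 h libraries held 10.6, 12.4, 6.43, 12.2 and 9.21 CPM. All 5 Shank3 libraries at 1 h lay below their 3 naive libraries, with a log2 change of -1.16 ± 0.31, and the WT change was -0.38 ± 0.34 with overlapping groups. Without Shank3 naive library 2, the highest, the Shank3 change was -0.88, and without Shank3 1 h library 3 it was -1.02. On plain totals it was -0.67, and the WT change was 0.22, the other direction.

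At 4 h Trib1 stood at 6.24 ± 2.01 CPM (SD, n = 5) in WT and 7.0 ± 2.31 CPM (SD, n = 6) in Shank3. Naive libraries of cohort 2 held 10.4, 7.90, 8.84 and 9.97 CPM in WT and 17.2, 8.65, 8.31 and 15.7 CPM in Shank3. Of the 6 Shank3 libraries at 4 h, 5 lay below every naive Shank3 library, and in WT 3 of 5 did. The log2 changes were -0.61 ± 0.32 in WT and -0.72 ± 0.29 in Shank3. Their direction turned with the scaling, since plain library totals gave 0.15 in WT and 0.29 in Shank3. The Shank3 value was -0.53 without Shank3 naive library 4, -0.59 without Shank3 naive library 7 and -0.50 with the pair share as a covariate. The WT value was -0.79 without WT 4 h library 4 and -1.06 with TMM over genes that have no opposite-strand neighbour.

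Ppp1r15a, the eIF2alpha phosphatase subunit, was not counted in the WT naive libraries of cohort 1 and had its highest means at 4 h, in cohort 2. Those 3 libraries held 0 counts, which allows a level of up to 1.44 CPM over the group (3 counts of the summed library sizes). The 6 WT libraries at 1 h held 1, 10, 3, 7, 1 and 4 counts, or 2.57 ± 1.30 CPM (SD, n = 6). Their summed level was 2.08 times that floor, which leaves out the counting error of the 1 h libraries. The exact 95% interval of the ratio of summed counts began at 1.58, and the fitted change is not a bound. Shank3 naive libraries of cohort 1 held 2, 2 and 0 counts and Shank3 1 h libraries held 5, 4, 7, 1 and 4, a ratio of 1.67 (0.563 to 6.69). The 1 h groups of the genotypes overlapped, at 2.40 ± 0.950 CPM (SD, n = 5) in Shank3 and 2.57 CPM in WT. At 4 h WT libraries held 3.27, 1.41, 4.89, 3.48 and 4.51 CPM, against 0, 0, 2.04 and 1.99 CPM in WT naive libraries of cohort 2. All but 1 of the WT 4 h libraries lay above the naive ones, and the log2 change was 1.56 ± 0.62.

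The Ppp1r15a change in WT at 4 h was 1.23 without WT naive library 4, 1.27 without WT naive library 5 and 1.11 with TMM over genes that have no opposite-strand neighbour. Shank3 libraries at 4 h ran from 2.47 to 5.61 CPM with a median of 3.14, and naive Shank3 libraries of cohort 2 held 2.65, 2.16, 0 and 1.43 CPM. The log2 change in Shank3 was 1.13 ± 0.56, with 4 of 6 libraries above the naive ones, and the ratio of summed counts was 2.32 (1.07 to 5.98). On plain totals the Shank3 change was 2.08. With the pair share as a covariate the 4 h changes were 0.53 ± 0.72 in WT and -0.05 ± 0.84 in Shank3. Tulp2, the gene that shares 12 exon bases with Ppp1r15a, moved the other way, with log2 changes at 4 h of -1.10 ± 0.33 in WT and -1.39 ± 0.31 in Shank3. On plain totals the Tulp2 ratios of summed counts were 0.738 in WT and 0.695 in Shank3 at 4 h, but 1.33 (1.03 to 1.73) in WT at 1 h. Its counts ran from 18 to 97 per library, and its part in the Ppp1r15a values was not tested.

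**Figure D2:**
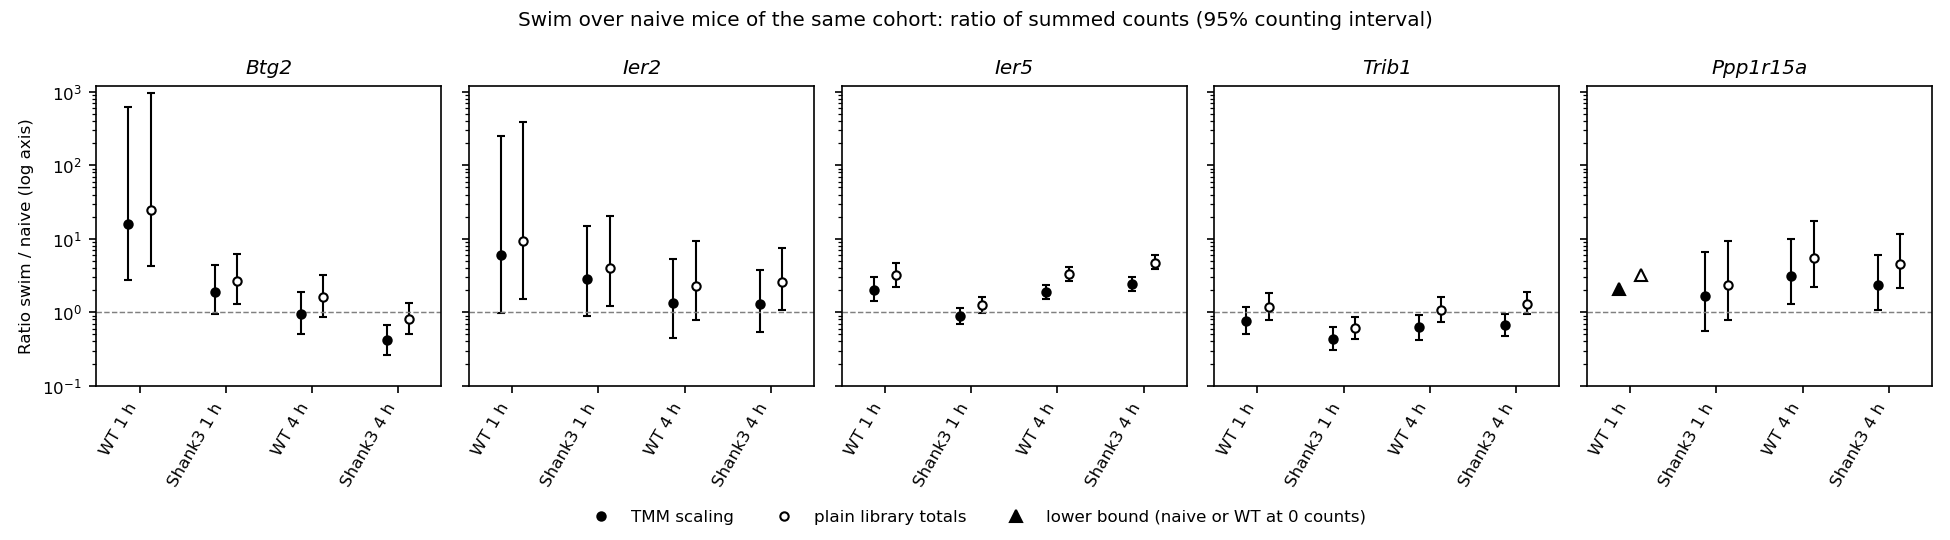
Ratio of the counts summed over the swim libraries to those summed over naive libraries of the same cohort (vertical log axis). It is shown for each gene and each of 4 swim groups, with exact 95% intervals for counting error only. Filled points use TMM scaling and open points plain library totals. Triangles mark the ratio to a floor of 3 counts where the naive group had 0 counts. They leave out the counting error of the swim group and are not 95% bounds. Ier5 lies above 1 at 4 h in both genotypes on both scales, and Trib1 changes side at 4 h with the scale.

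Set side by side, the 5 genes had different orders of group means. The order runs over both cohorts, so swim time and cohort cannot be told apart in it. Group means ordered by level put WT naive of cohort 1 lowest for Btg2, Ier2, Ier5 and Ppp1r15a, and Shank3 naive of cohort 1 highest for Trib1. The highest mean was WT 1 h for Btg2, Shank3 1 h for Ier2 and Shank3 4 h for Ier5 and Ppp1r15a. In the order of 8 group means, 6 of 7 neighbouring groups had overlapping libraries for Btg2, Ier5 and Trib1, and 7 of 7 had for Ier2 and Ppp1r15a. The neighbours that did not overlap were WT naive of cohort 1 and Shank3 4 h for Btg2, WT naive of cohort 1 and of cohort 2 for Ier5, and WT naive and Shank3 naive of cohort 1 for Trib1. On the log2 scale over 36 libraries, Ier5 and Ppp1r15a had a Pearson r of 0.71, Btg2 and Ier2 of 0.53, and Ier5 and Trib1 of -0.37. After the mean of each group was taken out these were 0.36, 0.31 and 0.10. The libraries share groups, depth and scaling, so these correlations are a description.

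The counts of genes past the threshold stand beside those of all genes tested, by edgeR's quasi-likelihood test at an adjusted p of 0.05. In WT at 1 h 3 of 4 passed, all higher (Btg2, Ier5 and Ppp1r15a), where 34.2% of all genes passed. In Shank3 at 1 h 1 of 4 passed, lower (Trib1), where 12.2% of all genes passed. In WT at 4 h 2 of 4 passed, both higher (Ier5 and Ppp1r15a), where 56.0% of all genes passed. In Shank3 at 4 h 3 of 4 passed, Ier5 higher and Btg2 and Trib1 lower, where 62.1% of all genes passed. Single libraries decided part of these counts, which leaving out 1 library moved to between 1 and 3 at 4 h in each genotype and between 0 and 1 in Shank3 at 1 h. Because the genes were chosen for these responses nothing is read from the counts. The median log2 change of all genes was 0.24 and 0.09 at 1 h and 0.23 and 0.22 at 4 h, in WT and Shank3. Among the 4822 tested genes that have no opposite-strand neighbour it was 0.57, 0.30, 0.58 and 0.62 in the same order. On plain library totals the median of all genes was 0.85, 0.57, 0.98 and 1.17, so the sign of a small change depends on which genes are taken as steady.

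Between genotypes, the levels lay furthest apart in naive mice of cohort 1. There every Shank3 naive library lay above every WT naive library for Btg2, Ier5 and Trib1, on the TMM scale and on plain totals. Each group had 3 libraries, and for Trib1 the nearest were at 17.7 and 17.3 CPM. For Btg2 the nearest were at 1.26 and 1.15 CPM and held 1 count each. The ratio of its summed counts, 9 against 1, was 7.11 (0.985 to 311.5), and 7.71 (1.07 to 338) on plain totals. The share of all genes with no overlap between groups was not computed, here or for the swim groups. Nothing is therefore read from the lack of overlap in these chosen genes. In naive mice the log2 differences of Shank3 over WT were 1.87 ± 0.64 for Btg2, 0.57 ± 0.23 for Ier5 and 0.49 ± 0.25 for Trib1 over both cohorts, and in cohort 2 the libraries overlapped. The Btg2 difference was 2.67 ± 1.17 in cohort 1 and 1.06 ± 0.54 in cohort 2, and it was 3.36 without WT naive library 2. Ppp1r15a had 4 counts in Shank3 and 0 in WT naive libraries of cohort 1, and 7 and 5 counts in cohort 2, a ratio there of 1.39 (0.378 to 5.53). Ier2 had 3 counts against 1 in cohort 1 and 6 against 4 in cohort 2. All 5 TMM-scaled means were higher in Shank3 naive than in WT naive libraries in each cohort, and on plain totals Ier5 in cohort 2 was the exception. In naive mice edgeR called 0 of 4 where 0.00882% of all genes passed, and DESeq2 and limma also called 0. An unadjusted p under 0.05 in edgeR was held by 3 of 4, and by 539 of all 11341 genes. Because the genes were chosen on these levels, nothing is read from that count. At 1 h the differences of the 4 genes ran from -0.21 to -0.09, and 0 passed in edgeR (0% of all genes, 0 of 4 at an unadjusted p under 0.05), DESeq2 or limma. At 4 h they ran from -0.06 to 0.25, and 0 passed in edgeR (0.00882% of all genes, 0 of 4 at an unadjusted p under 0.05), DESeq2 or limma.

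**Figure D3:**
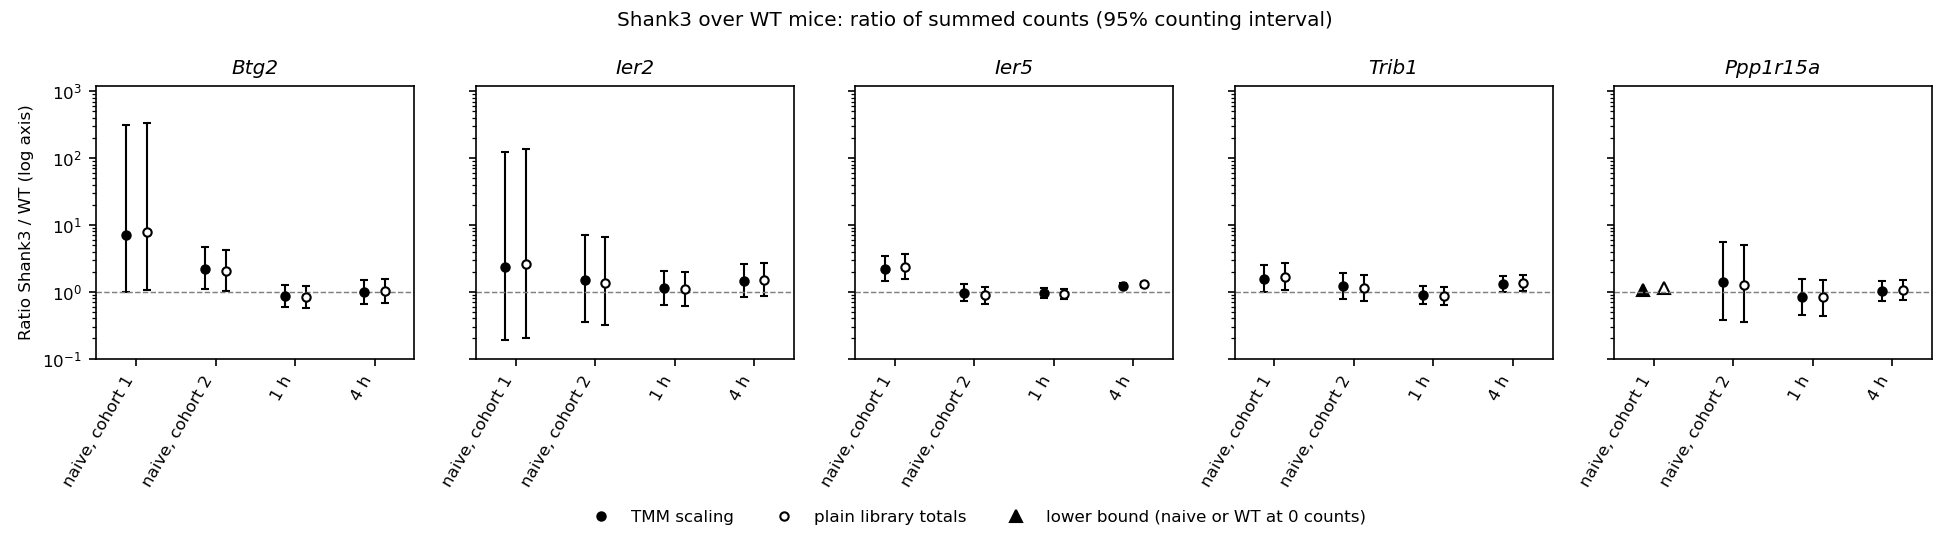
Ratio of summed counts, Shank3 over WT (vertical log axis), in naive mice of each cohort and at 1 h and 4 h after the swim, drawn as in the plot of swim ratios. The points lie above 1 for Btg2, Ier2 and Trib1 in both naive cohorts and for Ier5 in cohort 1 only. For Ppp1r15a they lie above 1 in the other naive cohort. At 1 h the points of all genes lie near 1. The Ppp1r15a triangle in naive mice of cohort 1, from 4 counts against 0, is not a bound. The exact 95% interval of that ratio began at 0.52 with TMM scaling and at 0.57 on plain totals.

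The interaction is the swim response of Shank3 mice minus that of WT mice, made from the same libraries and contrasts as the values above, so it is given as a description too. At 1 h it was -2.82 ± 1.23 for Btg2, -1.23 ± 0.42 for Ier5 and -0.78 ± 0.46 for Trib1 on the log2 scale. It was negative for all 4 genes, the Ppp1r15a value resting on 0 counts in WT naive libraries. In edgeR 0 of 4 passed the threshold, where 0% of all genes passed, and DESeq2 and limma called 0 of 4. An unadjusted p under 0.05 in edgeR was held by 3 of 4, and by 468 of all 11341 genes. The Btg2 value was -5.81 without WT naive library 2 and -1.83 without Shank3 naive library 2. With an additive cohort term the Btg2 value was -1.48 and the Ier5 value -0.54. At 4 h the interaction was -1.12 ± 0.66 for Btg2, 0.21 ± 0.35 for Ier5, -0.11 ± 0.44 for Trib1 and -0.43 ± 0.89 for Ppp1r15a. Again 0 of 4 passed in edgeR, where 0% of all genes passed, with 0 of 4 at an unadjusted p under 0.05, and DESeq2 and limma called 0 of 4.

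The choice of genes does not name the difference between the naive cohorts. That difference still uses the naive libraries behind the genotype differences and swim responses that the genes were chosen on. Its p-values are therefore not independent of the choice and are given as a description. Trib1 was lower in naive mice of cohort 2 than in those of cohort 1. The level was 10.9 ± 3.58 CPM (SD, n = 8) in cohort 2 and 18.5 ± 6.22 CPM (SD, n = 6) in cohort 1, and the log2 difference, cohort 2 over cohort 1, was -0.78 ± 0.26 (adjusted p = 0.0450, edgeR). All but 2 of the cohort 2 libraries lay below every cohort 1 library. This was 1 of 4 genes past the threshold, where 10.7% of all genes passed. The call was weak, since it was kept in 4 of the 14 fits that each left out 1 naive library, with values from -0.87 to -0.64. It was lost with no filter (-0.74), with the pair share as a covariate (-0.75), with the replicate block (-0.68) and on plain totals (-0.49). The share of all genes past the threshold was 5.26%, 10.1%, 0.203% and 15.5% in the same order. Btg2 was higher in cohort 2 by 1.78 ± 0.63 with an adjusted p of 0.0574 in edgeR, and it passed on plain totals (2.02) and without Shank3 naive library 4 (1.92). Without WT naive library 2 it was 3.28. Ier5 differed by 0.04 ± 0.23. Because each swim time has only 1 cohort, swim time and cohort cannot be told apart in a comparison of 1 h with 4 h.

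The levels of 3 of the 5 genes moved along with the pair share across the 36 libraries. Pearson's r of the log2 level with the pair share was 0.75 for Ier5, 0.69 for Ppp1r15a and -0.68 for Trib1. It was 0.01 for Btg2 and 0.16 for Ier2. The same 3 genes followed other measures of the libraries about as closely, with an r of 0.71, 0.73 and -0.73 with the TMM factor and 0.70, 0.75 and -0.54 with the total count. With the mean of each group taken out, r with the pair share was 0.53 for Ier5, 0.46 for Ppp1r15a, -0.15 for Trib1, 0.05 for Btg2 and 0.28 for Ier2. These points share library depth and TMM factors, and Ier5 has no annotated gene opposite. The part of the pair share in the 4 h responses was not tested, nor was that of the pyramidal neuron, astrocyte and oligodendrocyte markers, whose summed levels were also higher at 4 h.

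**Figure D4:**
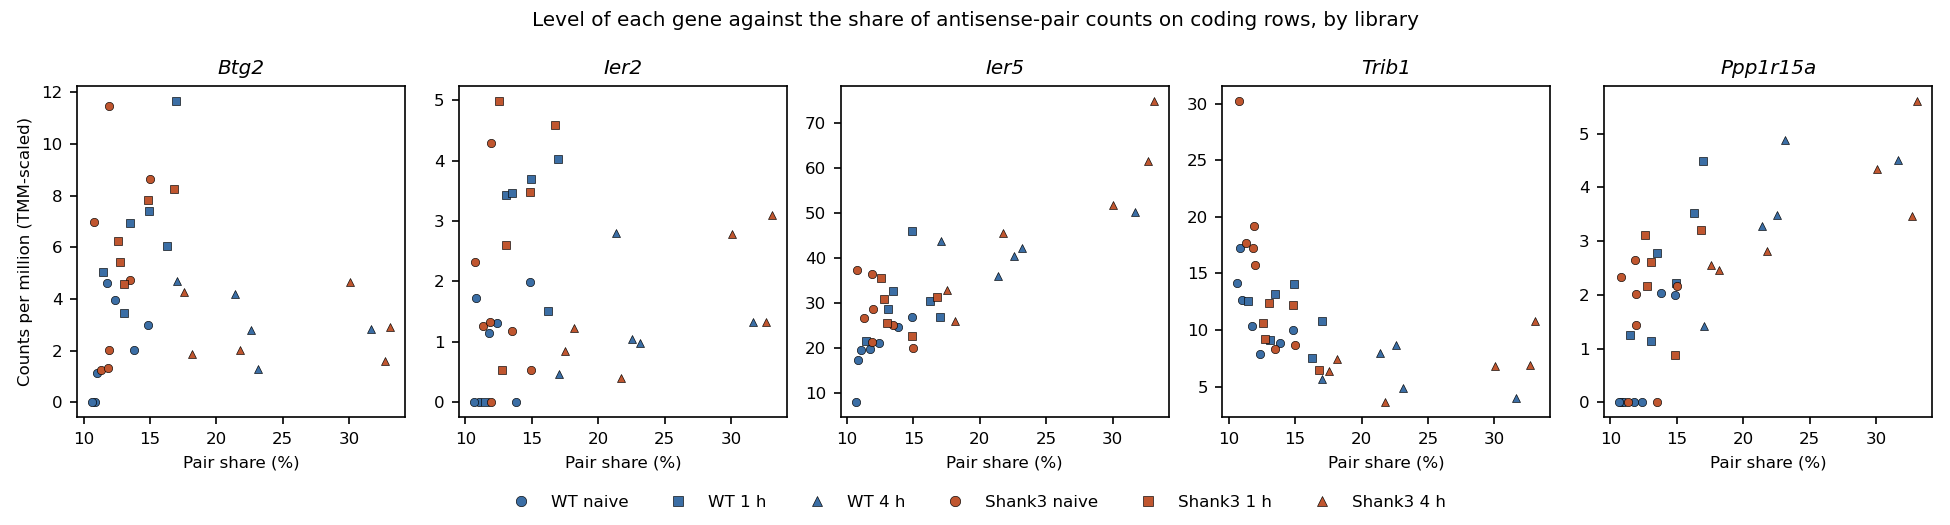
TMM-scaled CPM (vertical axes) of each gene against the pair share (horizontal axes, percent of the counts of antisense and coding pairs that lie on coding rows), 1 point per library, with color for genotype and shape for swim time. Ier5 and Ppp1r15a are higher and Trib1 lower where the pair share is higher, which is in 4 h libraries, and Btg2 shows no such trend.

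Genes with the most similar pattern were taken as the 2 highest Pearson r with each member over 36 libraries. For Btg2 these were Dnah7c (r = 0.68, and 0.26 with group means taken out) and Arc (0.68 and 0.60), and for Ier2 Arc (0.60 and 0.46) and Klf10 (0.58 and 0.48). Arc is itself a neuronal immediate early gene, and Klf10 an early gene of the TGF-beta response. For Ier5 they were Efr3b (0.87 and 0.65) and Cdc42bpb (0.85 and 0.68), and for Trib1 Sdr39u1 (0.83 and 0.60) and Mta2 (0.82 and 0.44). For Ppp1r15a they were Gpd2 (0.84 and 0.66) and Anapc1 (0.84 and 0.71). The r of these last genes with the pair share was -0.90 for Mta2, -0.83 for Sdr39u1 and 0.72 to 0.88 for the others.

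Other rapid early genes, the Fos, Jun, Egr and Nr4a families among them, were counted from a list chosen with earlier results known. Of its 34 genes 23 were tested, and in WT 9 were higher and 4 lower at 1 h and 11 higher and 4 lower at 4 h. In Shank3 6 were higher and 2 lower at 1 h, and 12 higher and 4 lower at 4 h. These are 56.5% and 34.8% of the list at 1 h and 65.2% and 69.6% at 4 h, in WT and Shank3, where 34.2%, 12.2%, 56.0% and 62.1% of all genes passed. The median log2 change was 0.63 and 0.46 at 1 h and 1.02 and 0.82 at 4 h, in WT and Shank3. Egr1, an activity-regulated transcription factor, rose in all 4 swim groups, by 1.71 ± 0.32 in WT at 1 h and 1.51 ± 0.27 in Shank3 at 4 h. Srf, the transcription factor that drives many early genes, fell in all 4, by 0.83 to 1.19 on the log2 scale. Egr3, of the Egr family, had its larger change at 4 h, 1.5 ± 0.33 in WT and 2.08 ± 0.33 in Shank3, against 0.55 ± 0.40 and -0.16 ± 0.37 at 1 h.

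For Btg2, 18 BTG/Tob and CCR4-NOT genes were listed and 15 tested. In WT 3 were higher and 1 lower at 1 h and 7 and 3 at 4 h, and in Shank3 8 were higher and 1 lower at 4 h. In Shank3 at 1 h edgeR called 0 higher and 1 lower, limma called the same numbers and DESeq2 1 and 1. An unadjusted p under 0.05 in edgeR was held by 3 of the 15, and by 3560 of all 11341 genes. The share of the list past the threshold was 26.7% in WT at 1 h and 66.7% and 60% at 4 h, in WT and Shank3, where 34.2%, 56.0% and 62.1% of all genes passed. Pabpc1, the poly(A) binding protein that BTG proteins act with, rose by 1.14 ± 0.25 in WT at 1 h and was at 0.52 ± 0.23, not past the threshold, in Shank3 at 1 h. Cnot3, a CCR4-NOT subunit, fell in all 4 groups, by 0.82 to 1.29 on the log2 scale. Of 14 p53 targets 10 were tested, with 4 higher and 1 lower in WT at 1 h and 5 and 2 at 4 h, and in Shank3 2 and 1 at 1 h and 5 and 1 at 4 h. Mdm2, the ligase that degrades p53, rose in all 4 groups, by 1.51 ± 0.44 in WT and 1.83 ± 0.46 in Shank3 at 1 h. Zmat3, an RNA-binding p53 target, fell in all 4 groups, by 0.79 to 0.94 on the log2 scale.

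For Ier2 and Ier5, 9 genes of the IER family and B55 PP2A were listed and 8 tested, with 5 higher and 2 lower in WT at 1 h, 1 and 1 in Shank3 at 1 h, and 5 and 1 in each genotype at 4 h. Ppp2r2c, a B55 subunit of neurons, rose at 4 h by 1.29 ± 0.25 in WT and 1.56 ± 0.25 in Shank3. Ppp2r2d, another B55 subunit, fell in all 4 groups, by 0.89 to 1.5 on the log2 scale. Of 11 genes of HSF1 and its targets 9 were tested, with 4 higher and 1 lower in WT at 1 h, 2 and 1 in Shank3 at 1 h, 2 and 3 in WT at 4 h and 3 and 3 in Shank3 at 4 h. Dnajb1, a heat shock cochaperone, rose in all 4 groups, by 1.08 to 1.14 on the log2 scale, and Hspe1, a mitochondrial chaperonin, fell at 4 h by 1.48 ± 0.26 in WT and 1.52 ± 0.25 in Shank3. Hsf1 itself, at a mean of only 3.92 CPM, rose at 4 h by 3.62 ± 0.64 in Shank3. In WT at 4 h it was at 0.93 ± 0.47, not past the threshold. The interaction of Hsf1 at 4 h, 2.69 ± 0.89, did not pass it in edgeR.

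For Trib1, 12 Tribbles and substrate genes were listed and 8 tested, with 3 higher and 1 lower in WT at 1 h, 2 and 2 in WT at 4 h and 4 and 2 in Shank3 at 4 h. In Shank3 at 1 h edgeR, DESeq2 and limma called 0. An unadjusted p under 0.05 in edgeR was held by 3 of the 8, and by 3560 of all 11341 genes. Cop1, the ubiquitin ligase, rose by 1.06 ± 0.29 in WT at 1 h, where Trib1 itself was at -0.38 ± 0.34. Cebpb, a C/EBP substrate, fell at 4 h by 1.17 ± 0.37 in WT and 1.71 ± 0.35 in Shank3. Map2k7, a kinase of the JNK pathway, fell by 0.74 ± 0.23 in WT at 1 h, and at 4 h by 1.25 ± 0.22 in WT and 0.69 ± 0.21 in Shank3.

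For Ppp1r15a, 16 genes of the eIF2alpha cycle were listed and 15 tested, with 6 higher and 2 lower in WT at 1 h, 1 and 1 in Shank3 at 1 h, 4 and 2 in WT at 4 h and 5 and 2 in Shank3 at 4 h. At 1 h these were 53.3% and 13.3% of the list, in WT and Shank3, where 34.2% and 12.2% of all genes passed. At 4 h they were 40% and 46.7% of the list, below the 56.0% and 62.1% of all genes. Eif2b4, a subunit of the exchange factor that eIF2alpha phosphorylation blocks, fell in all 4 groups, by 0.95 to 1.81 on the log2 scale. Of 17 targets of the integrated stress response 12 were tested, with 4 higher and 2 lower in WT at 1 h, 5 and 3 in WT at 4 h and 8 and 2 in Shank3 at 4 h. In Shank3 at 1 h edgeR called 3 higher and 0 lower, DESeq2 4 and 1 and limma 1 and 0. An unadjusted p under 0.05 in edgeR was held by 7 of the 12, and by 3560 of all 11341 genes. Atf4, the main transcription factor of that response, rose at 4 h by 1.24 ± 0.25 in WT and 1.09 ± 0.24 in Shank3. Atf5, another factor of that response, fell at 4 h by 1.54 ± 0.35 in WT and 1.52 ± 0.33 in Shank3.

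The counts of every list stand beside the share of all genes past the threshold. That share was 34.2% and 12.2% at 1 h and 56.0% and 62.1% at 4 h, in WT and Shank3. The direction of these lists depended on the scaling and on the pair share. With TMM factors over genes that have no opposite-strand neighbour, the early gene list had 7 higher and 7 lower in WT at 4 h, and 9 and 5 in Shank3. On plain totals it had 16 and 1 in WT and 19 and 0 in Shank3, and with the pair share as a covariate 1 and 0 in WT. The median of the integrated stress response targets in WT at 4 h was 0.23, and it was -0.23 with TMM over genes that have no opposite-strand neighbour. Egr1, Dnajb1, Ppp2r2c, Mdm2 and Atf4 kept a positive change at 4 h in both genotypes under each of the 3 scalings. With the pair share as a covariate, Egr1 in WT passed the threshold at 4 h and the other 4 did not in either genotype, where 7.69% and 0.529% of all genes did. Of the 9 genes named as lower, Zmat3 and Map2k7 have no exon opposite another gene. The exons of Srf, Cnot3, Ppp2r2d, Hspe1, Cebpb, Eif2b4 and Atf5 lie opposite one. No exon of the list genes named as higher does, which holds for the named genes only. Junb and Cnot1, of the same lists, have exons opposite another gene and passed the threshold as higher at 4 h. Junb rose by 1.72 ± 0.32 in WT and 1.32 ± 0.32 in Shank3, and Cnot1 by 1.06 ± 0.28 and 1.04 ± 0.27. On plain totals the changes of Zmat3 and Map2k7 in Shank3 at 4 h were 0.24 and 0.31, the other direction, and with the pair share as a covariate those of Atf5 at 4 h were 0.06 in WT and 0.32 in Shank3.

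**Figure D5:**
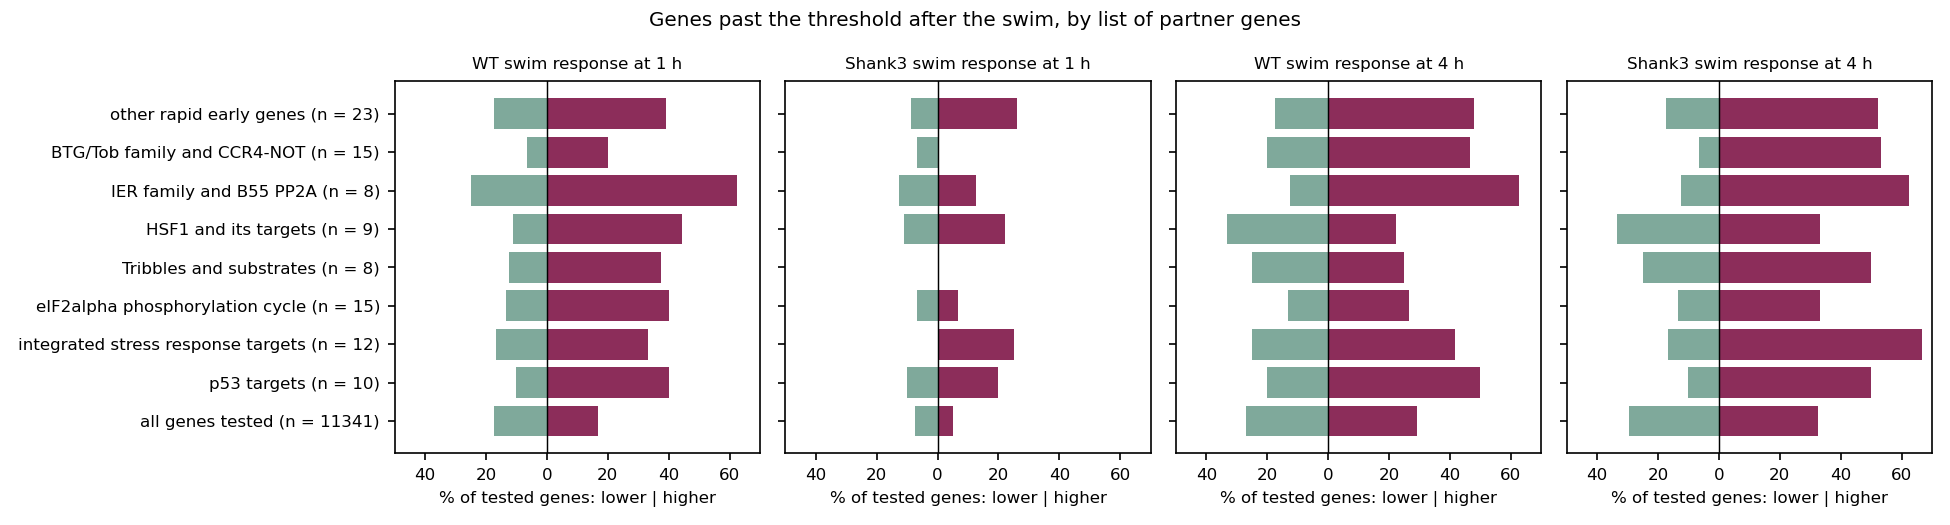
Share of the tested genes of each list (horizontal axis, percent; right, higher; left, lower) past an adjusted p of 0.05 in each of 4 swim comparisons, with all genes tested in the bottom bar; n is the number tested. At 4 h all genes split nearly evenly between higher and lower, and the early gene list has 11 and 12 higher against 4 and 4 lower; the lists are small, and whether they differ from other genes was not tested.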

How the data were processed

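Ribosome-bound RNA of 36 libraries was analysed from whole-number counts per gene that the authors deposited, one file per library, not normalized, per the file headers. The labels' protocols name a stranded TruSeq mRNA kit and an Illumina HiSeq instrument. The mm10 build, HISAT2 2.2.0 and Salmon 1.4 stand in the submitters' processing notes, as do StringTie 2.1.3, DESeq2, FastQC and Trimmomatic 0.39. The tool that made the counts, and whether strand was used, is not given in the sources used here. Of 55470 identifiers, 55143 matched a symbol and 55229 a position in GENCODE vM21.

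The quasi-likelihood test of edgeR 4.0.16 (R 4.3.3; robust, TMM, default filter) was run over 8 cells of genotype, swim and cohort, with 28 residual degrees of freedom. Adjusted p-values are Benjamini-Hochberg over 11341 genes with a threshold of 0.05. The SE is the log2 fold change over the square root of F and is unreliable at few counts. The common biological coefficient of variation was 24.2%, and TMM factors ran from 0.498 to 1.818. Total counts of 0.884 to 3.52 M per library leave members with few counts at counting precision, for which intervals of 95% and a floor of 3 counts were computed. Alternatives used DESeq2 1.42.0, limma 3.58.1, no filter, other scalings, the pair share as a covariate, an additive cohort term, each cohort alone and leaving out each library. The pair share was defined in an earlier analysis after values were seen. Plain totals and leaving out rRNA rows were added after seeing the data.

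The members and gene lists were chosen with earlier results of these data known. All members are named in every comparison. Of each list, up to 4 genes past the threshold with the smallest p are eligible to be named. Correlations use log2 CPM with a prior count of 2. In 68 pairs of libraries of 1 group the chi-square per degree of freedom was 1.48 or more, so none was treated as deposited more than once. The fit was checked on simulated data.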

Additional observations from a re-analysis of the deposited data

How the results depend on the processing

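Over the alternatives that kept every library or took 1 cohort alone, 82 counts of members past the threshold were within 1.5 times the reported count and 9 were not. Of the fold changes, 322 kept their place (within 1 SD between libraries, or for the tested interactions and cohort difference on the same side of the threshold), 36 moved by more than 1 SD, 4 fell short of the threshold, 1 came past it and 1 reversed, meaning that a change past the threshold took the other sign. A further 17 that were not past it changed sign. In WT at 4 h, 2 members passed, against 1 with no filter, 1 with TMM factors over genes with no opposite-strand gene (Trib1, lower), 0 with the pair share as a covariate and 1 with the replicate block. The share of all genes there was 56.0%, against 25%, 49.3%, 7.69% and 45.4% in the same order. In Shank3 at 4 h 3 passed, against 0 with the pair share. With that covariate 7.69% of all genes passed in WT at 4 h and 0.529% in Shank3, against 56.0% and 62.1%. In Shank3 at 1 h 1 passed, against 0 on plain library totals, where 12.2% and 15.6% of all genes passed. In naive mice of cohort 2 against cohort 1, 1 passed, against 0 with no filter, 0 with the pair share and 0 with the replicate block. Of all genes 10.7% passed there, against 5.26%, 10.1% and 0.203% in the same order. Trib1 in Shank3 at 4 h reversed to 0.29 on plain totals. The cause was not tested.

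Leaving out each library in turn gave 2 to 3 members in WT at 1 h, 0 to 1 in Shank3 at 1 h, 1 to 3 in WT and in Shank3 at 4 h, 0 to 2 between cohorts and 0 to 0 in the genotype effects and interactions. Replicate numbers are shared labels only: same-numbered libraries had a median correlation of deviations of -0.009 over 20 pairs in cohort 1 and 0.072 over 19 pairs in cohort 2, with 3 and 7 pairs over 0.1. The replicate block changed no other count. Few counts limit Ier2, Ppp1r15a and Btg2 in naive libraries.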
